A study of Rattus norvegicus with 27 samples.

Results

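Ion channel genes were followed through 3 stages of cultured rat Schwann cells, the glia that wrap peripheral axons. The members were chosen by gene name alone: potassium channel genes beginning with Kcn, sodium channel genes of the Scn series, calcium channel genes beginning with Cacna, Cacnb or Cacng, chloride channel and transporter genes of the Clcn series, and the transient receptor potential genes of the Trpa, Trpc, Trpm and Trpv series. Of 17315 genes in the cell mRNA table, 158 matched these names, and 59 of them reached a mean of 1 CPM (counts per 1000000 counts of the library) at one stage or more. Every stage had 3 cell mRNA libraries. The cells were purchased primary rat Schwann cells at passages 3 to 5, grown on coated plates in medium with exosome-depleted serum. Undifferentiated cells received no dibutyryl cyclic AMP (db-cAMP, a membrane-permeant form of the second messenger cyclic AMP). Differentiated cells were kept for 72 h in 1 mM db-cAMP with 1% serum, after a night of serum starvation. Dedifferentiated cells were treated in the same way and then had db-cAMP replaced for a further 72 h by complete medium, with 10% serum, forskolin (an activator of adenylyl cyclase, the enzyme that makes cyclic AMP) and neuregulin. Medium and serum therefore differed together with db-cAMP, and their parts cannot be told apart. Time in culture differed as well: dedifferentiated cells had a further 72 h, and the labels do not state when undifferentiated cells were harvested. Its part cannot be told apart either. Below, the start of a gene means its level in undifferentiated cells. The protocols name no axons in these cultures. Extracellular vesicles (EVs) were collected from the culture supernatant of the same stages, and their small RNA was sequenced in 3 libraries per stage.

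Potassium channels set the resting voltage of a cell and end its excitation, and in glia the inward rectifiers among them take up the potassium that axons release. Voltage-gated sodium and calcium channels open on depolarization, and their accessory subunits carry the pore to the membrane and tune its gating. The CLC proteins comprise plasma membrane chloride channels and chloride-proton exchangers of endosomes and lysosomes, and the TRP channels are cation channels that respond to temperature, osmotic or mechanical stimuli, calcium or lipids.

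Between undifferentiated and differentiated cells most of the 59 channel genes changed, and more rose than fell. In this comparison 31 of 59 were higher in differentiated cells and 14 were lower, by edgeR's quasi-likelihood test with Benjamini-Hochberg adjustment over 10372 genes and an adjusted p under 0.05. Over all genes tested, 31.7% were higher and 27.9% lower. The excess of rises was smaller under a stricter filter: among genes with 10 or more counts in every library, 24 channel genes were called, 13 of them higher. The median log2 change was 0.97 for the 59 channel genes and 0.05 for all genes tested. After withdrawal of db-cAMP, 19 of 59 rose and 19 fell from the differentiated level, where 23.2% of all genes rose and 23.2% fell. Their median log2 change was 0.09, against -0.01 over all genes. Dedifferentiated and undifferentiated cells differed in their channel genes. In dedifferentiated cells 22 of 59 were higher and 10 lower than in undifferentiated cells, where the shares over all genes were 16.1% and 13.3%. The median log2 change was 0.62 for the channel genes and 0.02 for all genes.

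The stage with the highest mean CPM was the undifferentiated stage for 16 of the 59 genes, the differentiated stage for 27 and the dedifferentiated stage for 16. Over the 10315 genes of the whole table that reached the same mean, 29.7%, 45.4% and 25% peaked at these stages, so the channel genes, at 27.1%, 45.8% and 27.1%, had shares close to these. The libraries of both stages were fully separated for 49 of 59 genes in the first comparison, for 42 in the second and for 40 in the third. Over all genes tested the stages were separated for 66.3%, 58.5% and 43.9%. All channel genes together took between 0.113% and 0.376% of a library's counts.

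**Figure D1:**
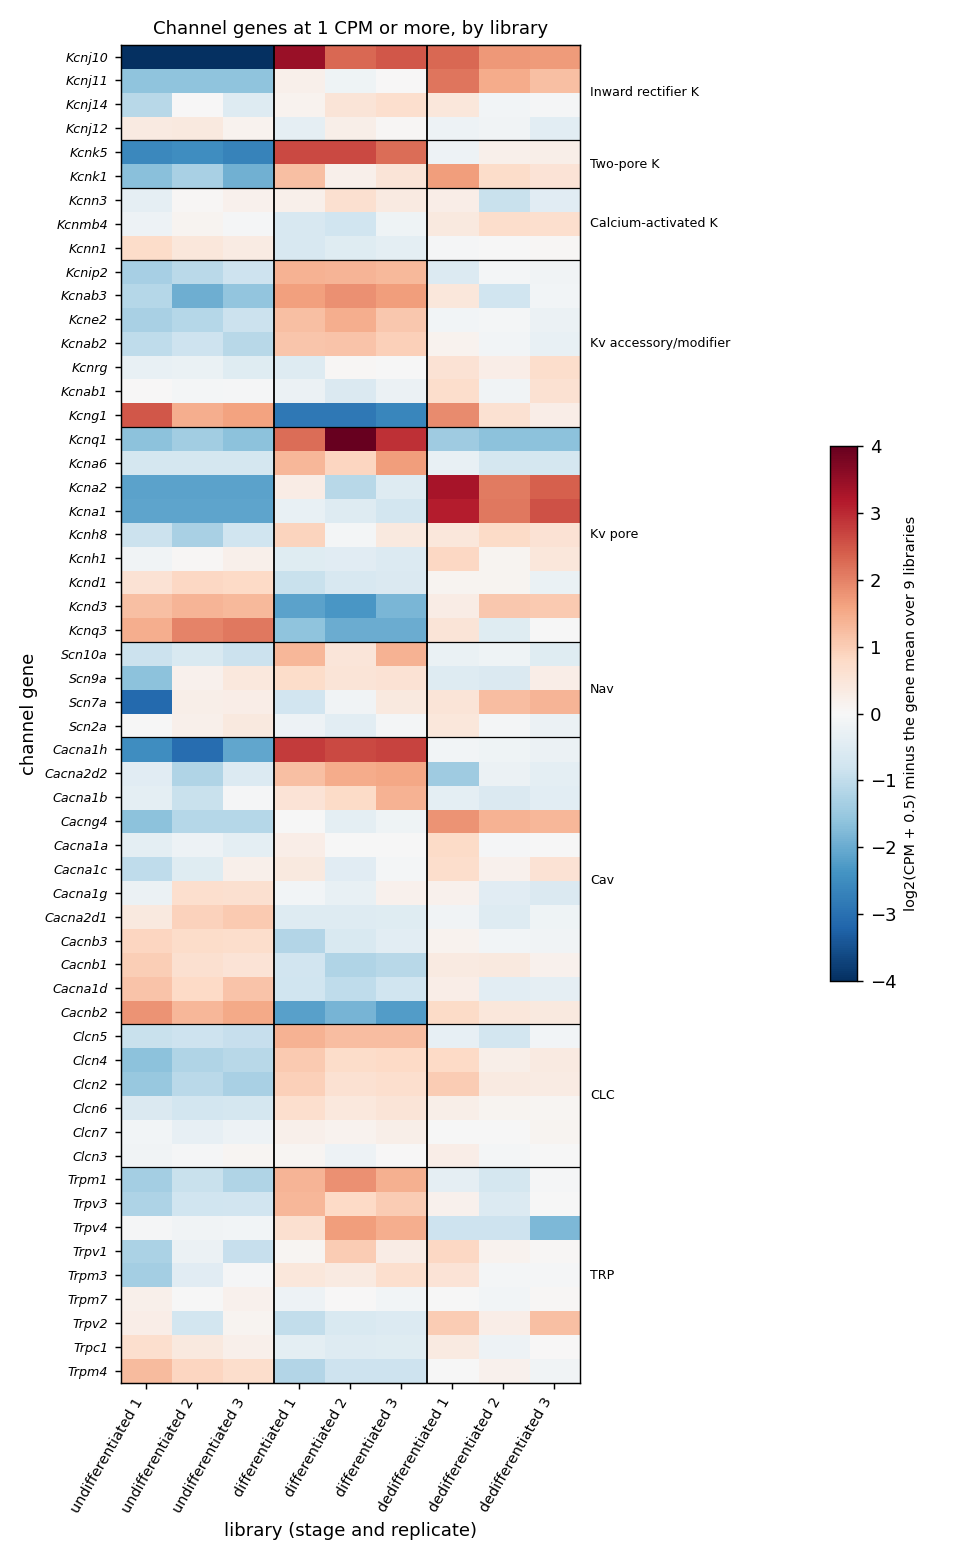
Level of 56 of the 59 channel genes in 9 cell mRNA libraries, as log2(CPM + 0.5) minus the gene's mean over the libraries (red above the mean, blue below, colour limits at 4). Rows are grouped by role and columns by stage; Kcnj10 and Cacna1h are lowest in the 3 undifferentiated libraries, Kcna1 and Kcna2 are highest in the 3 dedifferentiated ones, and undifferentiated library 1 stands apart from the other two for Scn7a.

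Library totals ran from 10058735 to 16212278 counts, so that 3 counts, the smallest level treated as detected, correspond to 0.185 to 0.298 CPM. Schwann cell markers were present, with 7 of 7 in the table over 1 CPM, which does not measure the purity of the cells. Their summed level ran from 8242 to 9425 CPM in undifferentiated, from 8445 to 11076 CPM in differentiated and from 18542 to 21433 CPM in dedifferentiated libraries. Of 9 neuronal markers 7 stayed under 1 CPM at every stage. The others, the neurofilament genes Nefl and Nefm, made up a sum of 190 to 516 CPM in undifferentiated, 1433 to 1940 CPM in differentiated and 354 to 463 CPM in dedifferentiated libraries. Of 7 fibroblast markers 4 were under 1 CPM and Lum was at 0. The sum, carried by Col1a1, Col3a1 and Pi16, was 15767 to 19722 CPM, 5428 to 7705 CPM and 9918 to 12873 CPM over the same 3 stages. Smooth muscle and pericyte markers summed to 124 to 155, 542 to 810 and 323 to 346 CPM with Rgs5 at 0, and endothelial markers to 1.21 to 3.08, 6.78 to 9.11 and 11.9 to 22.5 CPM with Cdh5 at 0. Leukocyte markers summed to at most 5.09 CPM with Aif1 and Adgre1 at 0, and perineurial markers to 25.3 to 36.4, 32.2 to 52.5 and 39.5 to 39.9 CPM. These sums moved with the stages, and their part in the channel results was not tested. Single markers within a sum went different ways. On differentiation Pdgfrb and Col3a1 were called higher, while Acta2 and Col1a1 were called lower. After withdrawal Acta2 and Col1a1 rose and Pdgfrb fell. Of the 7 Schwann cell markers 4 were higher and 3 lower on differentiation. A sum therefore follows its most abundant markers and not every marker of the type. In bulk RNA, fewer cells of a type and less RNA per cell cannot be told apart. The sample titles call the replicates biological, but the labels do not say whether they were separate cultures from separate animals. P-values therefore measure the spread between these libraries, and what that spread covers is not stated.

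Potassium channels of the inward rectifier and tandem-pore-domain families mostly rose with differentiation. Of the 4 inward rectifiers at 1 CPM or more (of 15 in the table), 3 rose and Kcnj12 did not pass the test. Both tandem-pore genes at that level (of 13) rose. A further tandem-pore gene, Kcnk6, stayed just under 1 CPM and went the other way. Kcnk6 was lower in differentiated cells (log2 change -1.73, adjusted p = 0.0168) and rose after withdrawal (1.77, adjusted p = 0.0207). Kcnj10 encodes Kir4.1, the glial potassium channel known for clearing potassium from around axons. It had 0.0806, 0 and 0.327 CPM in undifferentiated libraries 1 to 3, 169, 76.3 and 87.0 CPM in differentiated and 76.9, 51.6 and 50.8 CPM in dedifferentiated libraries. Values stand in this order of replicates throughout, and 3 sets of values in the order of undifferentiated, differentiated and dedifferentiated libraries. The undifferentiated level of Kcnj10 rested on 6 counts in all, and no library of that stage came near the other 6. The log2 change was 9.33 ± 0.584 (SE; adjusted p = 2.9e-07) on differentiation and 8.45 ± 0.6 (SE; adjusted p = 4.53e-06) between dedifferentiated and undifferentiated cells. Without undifferentiated replicate 3, which held most of those counts, these values became 10.94 and 10.06. The decline after withdrawal, a log2 change of -0.88 ± 0.295 (SE; adjusted p = 0.0312), was within overlapping libraries. It ended without differentiated replicate 1 (-0.43, adjusted p = 0.133) or dedifferentiated replicate 2 (adjusted p = 0.102) or 3 (adjusted p = 0.108), and under DESeq2's Wald test (adjusted p = 0.104).

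Kcnj11, the pore-forming Kir6.2 subunit of ATP-sensitive potassium channels, had no count in the 3 undifferentiated libraries. It stood at 1.25, 0.849 and 1.05 CPM in differentiated and 6.27, 3.78 and 3.01 CPM in dedifferentiated libraries, without overlap between any of the stages. Against the floor of 3 counts in the shallowest undifferentiated library the differentiated level was at least 3.64-fold higher (adjusted p = 0.000472) and the dedifferentiated level at least 15.1-fold higher (adjusted p = 0.000107). The rise from the differentiated to the dedifferentiated stage had a log2 change of 2.05 ± 0.403 (SE; adjusted p = 0.00327). Kcnk5 encodes TASK-2, a background channel opened by alkaline pH, and had 1.85, 2.02 and 1.70 CPM, then 87.2, 86.8 and 66.4 CPM and then 11.8, 15.7 and 16.2 CPM. Each stage was separate from the others. It rose on differentiation with a log2 change of 5.38 ± 0.192 (SE; adjusted p = 6.64e-09), fell after withdrawal with -2.45 ± 0.152 (SE; adjusted p = 8.09e-07), and still ended above its start with 2.93 ± 0.198 (SE; adjusted p = 3.61e-06). Kcnk1, the weakly rectifying TWIK-1, went from 0.322, 0.577 and 0.196 CPM to 5.53, 2.55 and 3.27 CPM and stood at 7.97, 3.88 and 3.31 CPM after withdrawal. Its rise had a log2 change of 3.35 ± 0.565 (SE; adjusted p = 0.000442), and the difference between dedifferentiated and undifferentiated cells had 3.78 ± 0.561 (SE; adjusted p = 0.00058). The change after withdrawal, a log2 change of 0.43 ± 0.417 (SE; adjusted p = 0.422), did not pass the test. Kcnj12 and Kcnj14, looked at after their values were seen, moved by at most 0.97 on the log2 scale in any comparison. The rise of Kcnj14 on differentiation (0.97, adjusted p = 0.0203) was lost without undifferentiated replicate 1 (0.0583) or 3 (0.0621) or differentiated replicate 3 (0.0718). The lower level of Kcnj12 in dedifferentiated than in undifferentiated cells (-0.63, adjusted p = 0.0349) was lost without undifferentiated replicate 1 or 2, differentiated replicate 3 or any of the dedifferentiated replicates (adjusted p from 0.0509 to 0.124).

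The voltage-gated potassium channel pore genes (Kv channels) split into sets with different courses. Of 11 at 1 CPM or more (of 29), 7 rose and 3 fell on differentiation, and after withdrawal 6 rose and 4 fell. The first set had its lowest levels in the differentiated stage. Kcnd3 encodes Kv4.3, a pore of the fast-inactivating A-type current, and had 85.7, 94.5 and 91.1 CPM in undifferentiated, 7.96, 6.95 and 10.1 CPM in differentiated and 45.9, 78.5 and 76.9 CPM in dedifferentiated libraries. On differentiation Kcnd3 fell with a log2 change of -3.49 ± 0.207 (SE; adjusted p = 2.08e-07), and it rose again with 3.01 ± 0.206 (SE; adjusted p = 1.58e-06). The remaining shortfall against undifferentiated cells, a log2 change of -0.48 ± 0.179 (SE; adjusted p = 0.0675), did not pass the test. It passed with the replicate number as a block (adjusted p = 0.0356), under DESeq2's Wald test (0.0323), with no filter on low counts (0.0453) and without dedifferentiated replicate 2 (-0.64, adjusted p = 0.0464).

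Kcng1 encodes Kv6.1, a subunit that forms no channel alone and modifies Kv2 channels. Its CPM was 28.7, 13.8 and 15.4 in undifferentiated, 0.221, 0.232 and 0.370 in differentiated and 19.1, 7.56 and 5.87 in dedifferentiated libraries, with replicate 1 the highest of both of the expressing stages. The fall had a log2 change of -6.13 ± 0.639 (SE; adjusted p = 1.35e-05) and the rise after withdrawal 5.24 ± 0.656 (SE; adjusted p = 0.000101), or 4.55 without dedifferentiated replicate 1. Dedifferentiated and undifferentiated libraries overlapped, with a log2 change of -0.89 ± 0.417 (SE; adjusted p = 0.138). That difference passed with the replicate block (adjusted p = 0.0079) and without dedifferentiated replicate 1 (-1.61, adjusted p = 0.00758).

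Kcnq3 encodes Kv7.3, a subunit of the M-type current that restrains firing. It had 4.92, 7.21 and 7.92 CPM in undifferentiated libraries, 0.147, 0 and 0 CPM in differentiated libraries, which is 2 counts in all, and 2.29, 0.895 and 1.43 CPM in dedifferentiated libraries. No library of any stage overlapped another stage. Undifferentiated cells were 144-fold higher than differentiated ones (95% counting interval 39.5 to 1200, adjusted p = 7.16e-06), and dedifferentiated cells 33.4-fold higher (8.83 to 283, adjusted p = 0.000539). The fitted log2 changes were -6.94 and 4.79, and they became -9.46 and 7.31 without differentiated replicate 1, which held the 2 counts, and -6.34 and 4.20 without differentiated replicate 3. Recovery was partial, with a log2 change of -2.14 ± 0.418 (SE; adjusted p = 0.00319) between dedifferentiated and undifferentiated cells. Its relative Kcnq1, the Kv7.1 pore known from heart and epithelia, showed the reverse course. It had 1 count in the undifferentiated stage, 6.85, 28.9 and 11.3 CPM (652 counts) in the differentiated libraries and 1 count in the dedifferentiated stage. Differentiated cells were 581-fold above undifferentiated cells (interval 104 to 23000, adjusted p = 1.51e-05) and 536-fold above dedifferentiated cells (95.9 to 21200, adjusted p = 3.47e-05). Differentiated replicate 2 held the highest of the 3 values, and without it the fitted log2 changes went from 8.71 to 7.93 and from -8.66 to -7.89. The first became 10.66 and 8.11 without undifferentiated replicates 2 and 3, and the second -10.63 without dedifferentiated replicate 1. These intervals and all floors cover counting error only. Kcnd1, the Kv4.1 relative of Kcnd3, fell as well, from 5.16, 6.25 and 6.09 CPM to 1.55, 1.93 and 2.04 CPM, and stood at 3.65, 3.58 and 2.63 CPM after withdrawal. The fall had a log2 change of -1.72 ± 0.243 (SE; adjusted p = 0.000131). Its partial rise (0.84, adjusted p = 0.0187) was lost without differentiated replicate 1 (adjusted p = 0.0574) or dedifferentiated replicate 1 (0.0501) or 2 (0.0551), and its remaining deficit (-0.88, adjusted p = 0.0176) without undifferentiated replicate 2 (0.0512) or 3 (0.0513) or dedifferentiated replicate 3 (0.0758).

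Kcna1 and Kcna2 encode Kv1.1 and Kv1.2, known from the axon membrane beside the paranodes of myelinated fibres. Neither had a count in the 3 undifferentiated libraries. Kcna1 stood at 1.25, 1.00 and 0.802 CPM in differentiated and 18.6, 8.85 and 12.1 CPM in dedifferentiated libraries, and Kcna2 at 2.21, 0.540 and 1.05 CPM and 21.4, 8.95 and 11.2 CPM. For both genes every dedifferentiated library lay above every differentiated one. Kcna1 was at least 3.53-fold above undifferentiated cells on differentiation (adjusted p = 0.00059) and at least 45.7-fold above them after withdrawal (adjusted p = 1.71e-05), and rose between these stages with a log2 change of 3.70 ± 0.366 (SE; adjusted p = 6.56e-05). Kcna2 was at least 4.39-fold (adjusted p = 0.00308) and at least 48-fold higher (adjusted p = 0.000142), and its rise after withdrawal was a log2 change of 3.45 ± 0.512 (SE; adjusted p = 0.00071). Without differentiated replicate 1 this rise became 4.10, and the fitted change on differentiation went from 7.02 to 6.36. The sum of neuronal markers, carried by Nefl and Nefm, was highest in the differentiated stage, where these Kv1 genes stood between 0.540 and 2.21 CPM. A link of these markers to the Kv1 genes was not tested. Kcna6, the Kv1.6 gene, is the next protein-coding gene after Kcna1 in the RefSeq order. It was picked out after its values were seen because it too rose on differentiation but fell after withdrawal. It had no count in undifferentiated libraries, 1.55, 1.00 and 2.10 CPM in differentiated libraries and 2 counts in all in dedifferentiated libraries. It was at least 5.37-fold above undifferentiated cells (adjusted p = 0.000699) and 28-fold above dedifferentiated cells (95% counting interval 7.45 to 236, adjusted p = 0.00265). The fitted change of -4.55 became -7.32 without dedifferentiated replicate 1 and -3.94 without dedifferentiated replicate 3. Kcna5, on the other side of Kcna1, and Kcna3 and Kcna10, on both sides of Kcna2, had stage means of at most 0.118 CPM.

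Kcnh1 and Kcnh8, of the ether-a-go-go family, were looked at after their values were seen: Kcnh8 rose by 1.45 on the log2 scale on differentiation (adjusted p = 0.000691), and Kcnh1 rose by 1.22 after withdrawal (adjusted p = 0.0064).

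Of 7 accessory, silent or modifying Kv genes at 1 CPM or more (of 23), 4 rose on differentiation and these same 4 fell after withdrawal, all of them staying above their undifferentiated level. Kcne2, a single-pass subunit that partners Kv7.1 and other pores, had 0.645, 0.769 and 1.05 CPM, 6.04, 7.18 and 5.49 CPM and 2.12, 2.19 and 1.88 CPM over the 3 stages. The stages were separate, with a log2 change of 2.83 ± 0.277 (SE; adjusted p = 8.24e-06) on differentiation and -1.58 ± 0.25 (SE; adjusted p = 0.000508) after withdrawal. Kcnip2, the calcium-binding partner KChIP2 of Kv4 pores, had 0.0806, 0.192 and 0.327 CPM, 3.39, 3.24 and 3.08 CPM and 0.509, 0.895 and 0.827 CPM, so it was highest where the Kv4 pores Kcnd1 and Kcnd3 were lowest. Its rise had a log2 change of 3.85 ± 0.443 (SE; adjusted p = 2.79e-05), or 4.44 without undifferentiated replicate 3, and its fall -2.10 ± 0.37 (SE; adjusted p = 0.001). The excess left after withdrawal (1.74, adjusted p = 0.0277) was lost without undifferentiated replicate 1 (0.081) or 2 (0.073) or dedifferentiated replicate 2 (0.0832) or 3 (0.0823), and became 2.34 without undifferentiated replicate 3. The others were the beta subunits Kcnab2 and Kcnab3, picked out after their values were seen. Kcnab2 rose by 2.37 and then fell by 1.27 on the log2 scale, and Kcnab3 rose by 3.84 and then fell by 1.91. Kcnab1 was higher in dedifferentiated than in differentiated cells (1.17, adjusted p = 0.0355), a call lost without undifferentiated replicate 3, any differentiated replicate or dedifferentiated replicate 1 or 3 (adjusted p from 0.0505 to 0.117), under DESeq2's Wald test (0.0646) and with no filter (0.0608). Kcnrg was higher in dedifferentiated than in undifferentiated cells (1.13, adjusted p = 0.0333), a call lost without any undifferentiated or dedifferentiated replicate or differentiated replicate 3 (adjusted p from 0.0511 to 0.116), under DESeq2's Wald test (0.0558) and with no filter (0.0647).

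Among calcium-activated potassium channel genes, 3 of 11 reached 1 CPM, and 2 of these, Kcnn1 and Kcnmb4, were lower in differentiated than in undifferentiated cells. Kcnn1, the small-conductance channel SK1, had 12.9, 10.4 and 9.49 CPM, then 4.64, 5.17 and 5.61 CPM and then 7.29, 7.36 and 7.67 CPM, with no overlap between stages. Its fall had a log2 change of -1.15 ± 0.18 (SE; adjusted p = 0.000268). The partial rise (0.54, adjusted p = 0.032) was lost when any one of the 6 libraries compared was left out (adjusted p from 0.0502 to 0.0887), and the remaining deficit (-0.60, adjusted p = 0.0268) without undifferentiated replicate 1 (0.0961) or any of the dedifferentiated replicates (0.0519 to 0.0705). Kcnmb4, the beta-4 subunit of large-conductance channels, had 9.51, 12.1 and 10.7 CPM, 7.00, 6.17 and 9.87 CPM and 14.8, 18.6 and 17.9 CPM. It was higher in dedifferentiated than in differentiated cells with a log2 change of 1.16 ± 0.189 (SE; adjusted p = 0.000623). Its decline on differentiation (-0.54, adjusted p = 0.0315) lay within overlapping libraries and was lost when library size alone was used for scaling (adjusted p = 0.056), and without undifferentiated replicate 2 (0.0834) or 3 (0.0571) or differentiated replicate 1 (0.0887) or 2 (0.112). Its excess over undifferentiated cells (0.62, adjusted p = 0.0297) was lost without undifferentiated replicate 1 or 3 or dedifferentiated replicate 2 or 3 (adjusted p from 0.076 to 0.116). Kcnma1, the pore that this subunit joins, had a stage mean of at most 0.0331 CPM.

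**Figure D2:**
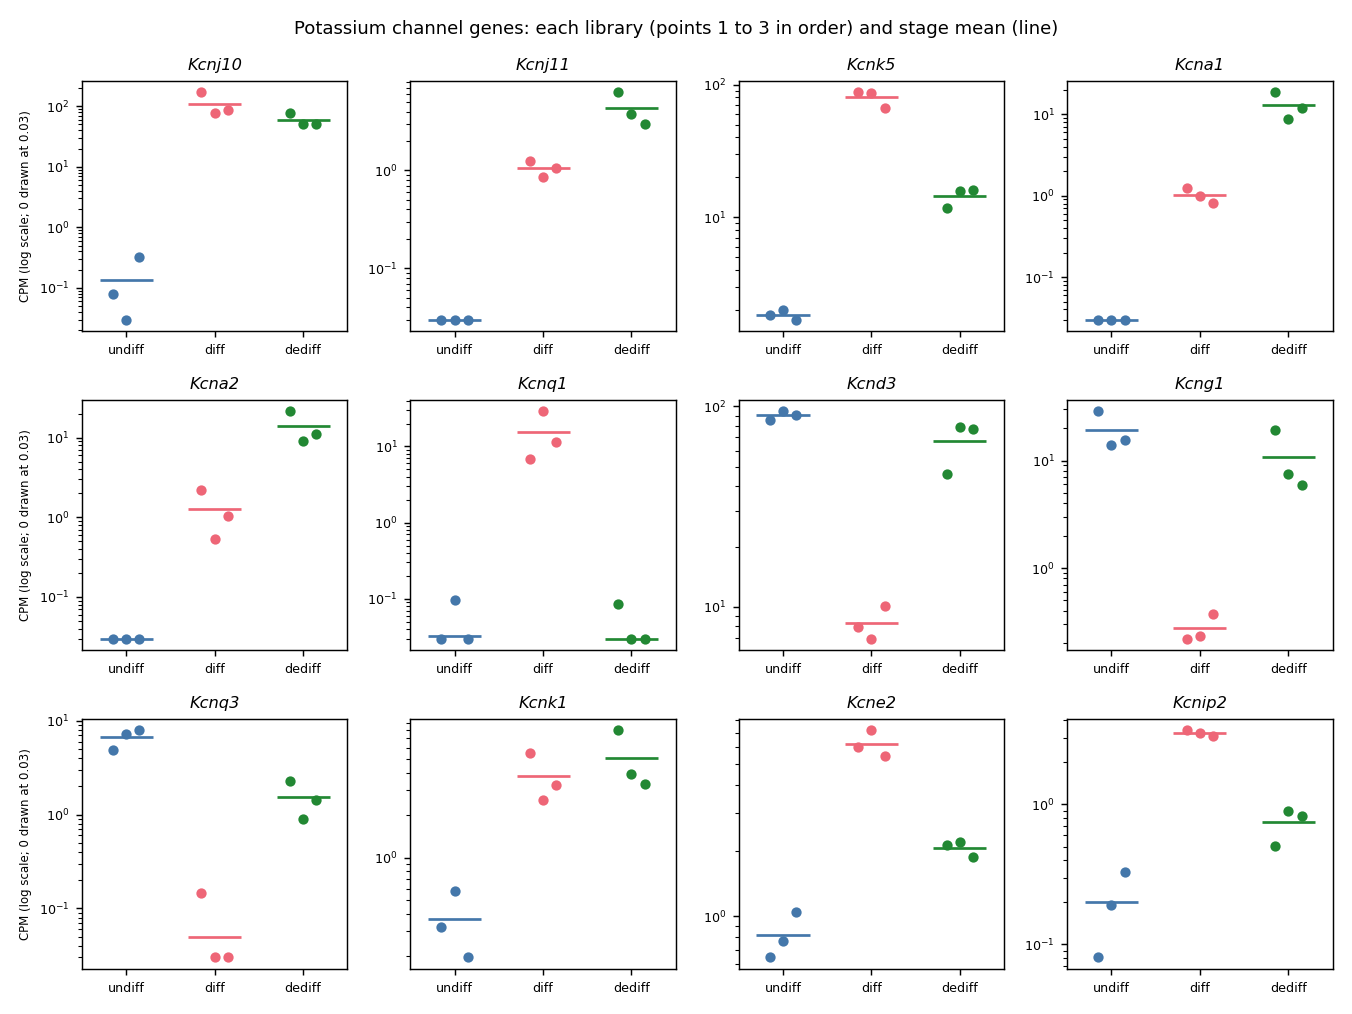
CPM of 12 potassium channel genes on log axes in each cell mRNA library, with points for replicates 1 to 3 from left to right and a line at the stage mean; libraries without a count are drawn at 0.03. Kcnd3, Kcng1 and Kcnq3 are lowest in the differentiated stage, Kcnq1, Kcne2 and Kcnip2 are highest there, and Kcna1, Kcna2 and Kcnj11 are highest in the dedifferentiated stage.

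Calcium channel genes changed in composition: the T-type pore Cacna1h rose while an L-type pore and the 3 beta subunit genes at 1 CPM or more fell. Of 12 at 1 CPM or more (of 26), 4 were higher and 5 lower in differentiated than in undifferentiated cells, and 5 rose and 3 fell after withdrawal. Cacna1h encodes Cav3.2, a channel that opens at small depolarizations. Its CPM was 1.37, 0.769 and 1.96 in undifferentiated, 71.7, 65.4 and 67.6 in differentiated and 9.16, 8.75 and 8.42 in dedifferentiated libraries. The stages were far apart beside the spread within each, with a log2 change of 5.52 ± 0.202 (SE; adjusted p = 8.07e-09) on differentiation, -2.95 ± 0.163 (SE; adjusted p = 3.97e-07) after withdrawal and 2.57 ± 0.215 (SE; adjusted p = 1.25e-05) between both ends. Cacna1g, the related Cav3.1, had 1.93, 4.04 and 3.99 CPM, 2.14, 1.85 and 2.71 CPM and 2.71, 1.59 and 1.43 CPM and passed in no comparison. It was lower in differentiated cells (-0.88, adjusted p = 0.0469) and in dedifferentiated cells (-1.09, adjusted p = 0.0423) once undifferentiated replicate 1 was left out. Of the L-type pores, Cacna1d (Cav1.3) fell from 4.51, 3.46 and 4.51 CPM to 0.810, 0.617 and 0.802 CPM with a log2 change of -2.53 ± 0.34 (SE; adjusted p = 9.05e-05) and stood at 2.20, 1.19 and 1.28 CPM after withdrawal, below its start with -1.46 ± 0.319 (SE; adjusted p = 0.00609). Its rise after withdrawal (1.07, adjusted p = 0.0334) was lost without any one of the differentiated replicates (0.0567, 0.097 and 0.0705) or without dedifferentiated replicate 1 (0.123). Cacna1c (Cav1.2) had 3.95, 6.06 and 9.95 CPM, 11.5, 6.10 and 8.14 CPM and 14.2, 9.64 and 13.0 CPM, overlapped between the first 2 stages and passed in no comparison; without undifferentiated replicate 3 its difference between dedifferentiated and undifferentiated cells passed (1.24, adjusted p = 0.0213).

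Beta subunits sit on the inner face of the pore and bring it to the membrane, and the 3 of their genes that reached 1 CPM fell on differentiation: Cacnb1, Cacnb2 and Cacnb3 were each lower in all 3 differentiated libraries than in any undifferentiated one. Cacnb2 had 9.51, 6.73 and 7.79 CPM, 0.147, 0.309 and 0.123 CPM and 4.49, 3.48 and 3.31 CPM. This gene fell with a log2 change of -5.41 ± 0.37 (SE; adjusted p = 5.73e-07), rose after withdrawal with 4.27 ± 0.386 (SE; adjusted p = 1.08e-05) and remained lower than at the start with -1.14 ± 0.258 (SE; adjusted p = 0.00744). Cacnb3 had 64.7, 59.6 and 57.3 CPM, 15.5, 22.9 and 26.2 CPM and 39.2, 32.8 and 31.9 CPM. Its fall was a log2 change of -1.55 ± 0.168 (SE; adjusted p = 1.73e-05), its rise 0.70 ± 0.168 (SE; adjusted p = 0.00647) and its remaining deficit -0.86 ± 0.164 (SE; adjusted p = 0.00296). Cacnb1 had 22.6, 17.8 and 16.8 CPM, 6.34, 4.55 and 4.87 CPM and 14.4, 14.7 and 12.8 CPM. Its fall had a log2 change of -1.92 ± 0.189 (SE; adjusted p = 8.69e-06) and its rise 1.42 ± 0.19 (SE; adjusted p = 0.000159), while its remaining deficit (-0.50, adjusted p = 0.0566) did not pass the test. That deficit passed with the replicate block (0.0292), with DESeq2 size factors (0.0457) and under DESeq2's Wald test (0.0337). It also passed with a term setting replicate 3 apart from the others (0.0497), and without undifferentiated replicate 3 (0.0483) or differentiated replicate 1 (0.0421).

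Cacna2d1 encodes alpha-2-delta-1, the extracellular subunit to which gabapentin binds. It had 16.5, 24.2 and 26.2 CPM in undifferentiated, 8.55, 8.49 and 8.88 CPM in differentiated and 11.2, 8.65 and 11.0 CPM in dedifferentiated libraries. It fell with a log2 change of -1.42 ± 0.174 (SE; adjusted p = 4.46e-05) and was still lower after withdrawal, with -1.16 ± 0.174 (SE; adjusted p = 0.000628) against undifferentiated cells, while its change after withdrawal, 0.27 ± 0.179 (SE; adjusted p = 0.247), did not pass the test. Its relative Cacna2d2 rose and fell back, from 1.13, 0.481 and 1.05 CPM to 4.64, 5.71 and 6.11 CPM and then to 0.339, 1.39 and 1.20 CPM, with a log2 change of 2.53 ± 0.426 (SE; adjusted p = 0.000445) and then -2.48 ± 0.427 (SE; adjusted p = 0.000882). Cacng4, a gamma subunit of the family that also serves AMPA-type glutamate receptors, climbed at each step, with 0.725, 1.25 and 1.24 CPM, 3.32, 2.47 and 2.90 CPM and 12.9, 9.64 and 9.18 CPM. The steps were a log2 change of 1.37 ± 0.292 (SE; adjusted p = 0.00211) and 1.88 ± 0.247 (SE; adjusted p = 0.000143). Cacna1b, the N-type pore, was picked out after its values were seen: it rose by 1.40 on the log2 scale on differentiation (adjusted p = 0.00221) and fell by 1.54 after withdrawal (adjusted p = 0.00209). Cacna1a, the P/Q-type pore, passed in no comparison with all libraries. Its excess in dedifferentiated over undifferentiated cells (0.58, adjusted p = 0.0582) passed with library size alone for scaling (0.0385), under DESeq2's Wald test (0.0444), with no filter (0.0491), with the replicate block (0.033) and without dedifferentiated replicate 2 (0.0444) or 3 (0.0412), and its difference on differentiation passed without dedifferentiated replicate 1 (0.32, adjusted p = 0.0374).

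Of the role groups, the CLC family had the largest share of its genes at 1 CPM or more, 6 of 7, and 5 of the 6 rose on differentiation. Clcn2 encodes the inwardly rectifying chloride channel of the plasma membrane. Its CPM was 11.6, 16.0 and 13.5 in undifferentiated, 65.9, 52.6 and 54.2 in differentiated and 68.8, 43.4 and 43.2 in dedifferentiated libraries, so all 6 later libraries lay above the first 3. It rose with a log2 change of 2.02 ± 0.202 (SE; adjusted p = 1.01e-05) and was still raised after withdrawal, with 1.88 ± 0.203 (SE; adjusted p = 6.8e-05) against undifferentiated cells. Its change after withdrawal was a log2 change of -0.14 ± 0.187 (SE; adjusted p = 0.566). Clcn4, an endosomal exchanger, did likewise, with 36.1, 49.3 and 52.1 CPM, 234, 189.8 and 198 CPM and 199, 135 and 147 CPM, and rose with a log2 change of 2.12 ± 0.172 (SE; adjusted p = 2.05e-06). The difference after withdrawal (-0.36, adjusted p = 0.0918) passed without dedifferentiated replicate 1 (-0.54, adjusted p = 0.0142), and against undifferentiated cells it was a log2 change of 1.76 ± 0.171 (SE; adjusted p = 3.38e-05). Clcn6, the exchanger of late endosomes, had 81.3, 73.6 and 75.5 CPM, 195, 165 and 177 CPM and 145, 133 and 129 CPM. It rose with a log2 change of 1.16 ± 0.0967 (SE; adjusted p = 2.53e-06), fell in part with -0.39 ± 0.095 (SE; adjusted p = 0.00712) and ended above its start with 0.77 ± 0.0965 (SE; adjusted p = 0.000193).

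Clcn5, another endosomal exchanger, was the CLC gene that fell back the most. It had 1.45, 1.54 and 1.44 CPM in undifferentiated, 9.14, 8.03 and 8.02 CPM in differentiated and 2.37, 1.69 and 2.86 CPM in dedifferentiated libraries. The rise was a log2 change of 2.44 ± 0.246 (SE; adjusted p = 1.06e-05) and the fall -1.83 ± 0.235 (SE; adjusted p = 0.000119), and the remaining difference, 0.61 ± 0.264 (SE; adjusted p = 0.111), did not pass the test. Clcn7, the lysosomal exchanger, moved less: 54.2, 46.9 and 51.4 CPM became 68.7, 65.4 and 69.2 CPM with a log2 change of 0.35 ± 0.0841 (SE; adjusted p = 0.00414), and no later change passed, with 58.4, 57.9 and 63.6 CPM after withdrawal. Ostm1, the partner protein that Clcn7 needs, was looked up after the values of Clcn7 were seen and had a log2 change of 0.57 on differentiation (adjusted p = 0.000623). Clcn3 had 102, 109.9 and 119 CPM, 119.8, 98.5 and 114 CPM and 136, 107 and 111 CPM. Its stages overlapped, and it passed in no comparison.

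Promoters were searched for the letters TGACGTCA, the element bound by CREB, a transcription factor of the cyclic AMP pathway. RefSeq promoters (GRCr8 build) could be matched for 40 of the 59 genes, and the 250 bases before each start were searched on both strands. The full element was found in 1 of 40, which was Clcn3, and in 1.7% of all 27457 promoters. The shorter site TGACG, which the full element contains, was found in 12 of 40 (30%) and in 19% of all promoters. Among all 113 channel genes with a matched promoter, at any level, it was found in 24 (21.2%). A share over all genes at 1 CPM or more was not computed. Either of the AP-1 letters TGACTCA and TGAGTCA was found in 1 of 40 (Trpv3) and in 3.98% of all promoters. The stretch around the Clcn3 element is shown because it belongs to the one CLC gene at 1 CPM or more that passed in no comparison. It lies at chr16:34137915-34137974 on the plus strand, with the element in capitals 63 bases before the start.
Clcn3 promoter: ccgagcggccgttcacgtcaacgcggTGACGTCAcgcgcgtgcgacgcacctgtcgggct
A match is a description of letters, not of binding.

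Of the sodium channel genes, 5 of 14 reached 1 CPM, and 1 of them passed in any comparison. Scn7a encodes Nax, a channel-like protein that responds to the sodium level and not to voltage, and it is known from Schwann cells. Its CPM was 113, 1154 and 1174 in undifferentiated, 576, 885 and 1261 in differentiated and 1377, 2280.0 and 2492 in dedifferentiated libraries. Every dedifferentiated library lay above every other one, and undifferentiated replicate 1 lay far under replicates 2 and 3. With all libraries no comparison passed: a log2 change of 0.11 ± 0.619 (SE; adjusted p = 0.892) on differentiation, 1.19 ± 0.627 (SE; adjusted p = 0.143) after withdrawal and 1.30 ± 0.629 (SE; adjusted p = 0.148) between both ends. Without undifferentiated replicate 1 the rise after withdrawal was 1.19 (adjusted p = 0.00401), the first difference became -0.41 (adjusted p = 0.254) and the third 0.78 (adjusted p = 0.0799). With the replicate number as a block the rise after withdrawal (1.22, adjusted p = 0.044) and the difference between both ends (1.65, adjusted p = 0.0223) passed. Scn9a encodes the voltage-gated Nav1.7 and is the neighbour of Scn7a in the RefSeq gene order. It too was lowest in undifferentiated replicate 1, with 0.0806, 1.54 and 1.90 CPM in undifferentiated, 2.50, 2.08 and 2.16 CPM in differentiated and 0.763, 0.696 and 1.65 CPM in dedifferentiated libraries. It passed in no comparison with all libraries, and its fall after withdrawal was -1.07 (adjusted p = 0.0394) without undifferentiated replicate 1.

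Scn10a, the Nav1.8 gene of sensory neurons, was picked out after its values were seen as the one sodium channel gene with a call. It had 1 count in undifferentiated and 64 counts in differentiated libraries, a 57-fold difference (95% counting interval 9.88 to 2290, adjusted p = 0.000316). The fitted change of 5.31 became 7.26 and 4.71 without undifferentiated replicates 2 and 3. Scn10a fell by 2.62 on the log2 scale after withdrawal (adjusted p = 0.00518). The counts of Scn2a and Scn9a include fractions of reads that the authors' counting divided between transcripts or related genes, so they are less certain.

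TRP genes moved both ways, and 9 of 20 reached 1 CPM. On differentiation 5 rose and 3 fell, and after withdrawal 3 rose and 3 fell. Trpm4 encodes a channel for monovalent cations that internal calcium opens. It had 39.4, 29.3 and 26.0 CPM in undifferentiated, 6.78, 8.72 and 8.76 CPM in differentiated and 15.9, 18.1 and 14.3 CPM in dedifferentiated libraries. It fell with a log2 change of -2.03 ± 0.192 (SE; adjusted p = 6.37e-06), recovered in part with 1.00 ± 0.194 (SE; adjusted p = 0.0018) and stayed under its start with -1.03 ± 0.184 (SE; adjusted p = 0.00194). Trpc1, a subunit of receptor-operated channels, had 41.3, 34.1 and 30.0 CPM, 19.4, 17.8 and 18.4 CPM and 33.1, 22.3 and 26.1 CPM. Its fall was a log2 change of -0.98 ± 0.17 (SE; adjusted p = 0.000532), and its rise after withdrawal (0.56, adjusted p = 0.0203) was lost without differentiated replicate 2 (0.06) or 3 (0.0581) or dedifferentiated replicate 1 (0.0678). Its remaining deficit (-0.42, adjusted p = 0.0861) passed with the replicate block (0.0263) and without undifferentiated replicate 3 (-0.54, adjusted p = 0.0485) or dedifferentiated replicate 1 (-0.61, adjusted p = 0.0205).

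Trpv4, which responds to osmotic swelling and warmth, had 2.74, 2.50 and 2.55 CPM in undifferentiated, 4.72, 10.1 and 8.57 CPM in differentiated and 1.36, 1.39 and 0.451 CPM in dedifferentiated libraries. It rose with a log2 change of 1.52 ± 0.364 (SE; adjusted p = 0.00428) and fell after withdrawal with -2.87 ± 0.409 (SE; adjusted p = 0.000249). It ended below its start (-1.36, adjusted p = 0.0371), a call lost without any one of the undifferentiated replicates (0.0651 to 0.075), differentiated replicate 3 (0.0545) or dedifferentiated replicate 3 (-0.95, adjusted p = 0.115). Trpv2, a relative of the heat-sensitive channels, passed in the step after withdrawal, with 2.42, 0.961 and 2.09 CPM, 0.737, 1.08 and 1.17 CPM and 4.41, 2.39 and 5.11 CPM. The dedifferentiated libraries lay above all differentiated ones, with a log2 change of 2.00 ± 0.416 (SE; adjusted p = 0.00277). Its decline on differentiation (-0.94, adjusted p = 0.0829) passed without undifferentiated replicate 2 (-1.26, adjusted p = 0.0262), and its excess over undifferentiated cells (1.06, adjusted p = 0.0674) passed with the replicate block (0.0419), among genes with 10 or more counts in every library (0.0482) and without dedifferentiated replicate 2 (1.28, adjusted p = 0.0434). Trpv1, the capsaicin receptor, had 2.10, 4.81 and 2.81 CPM, 6.19, 12.3 and 7.28 CPM and 10.8, 6.46 and 5.94 CPM. Its rise had a log2 change of 1.36 ± 0.373 (SE; adjusted p = 0.00892), and its excess in dedifferentiated over undifferentiated cells (1.23, adjusted p = 0.0322) was lost without undifferentiated replicate 1 (0.0895) or 3 (0.0985) or dedifferentiated replicate 1 (0.122) or 2 (0.053).

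Trpv3, the gene next to Trpv1, was picked out after its values were seen. It rose by 2.33 on the log2 scale on differentiation (adjusted p = 0.000119) and fell by 1.30 after withdrawal (adjusted p = 0.00501). Trpm7, a channel fused to a kinase and known for magnesium uptake, had 183, 158 and 181 CPM, 139, 159 and 149 CPM and 157, 149 and 165 CPM, with overlapping libraries and a small fall, a log2 change of -0.29 ± 0.0841 (SE; adjusted p = 0.013). Trpm3, a channel opened by heat and by neurosteroids, had 18.3, 34.5 and 46.4 CPM, 65.1, 61.8 and 75.9 CPM and 69.5, 45.4 and 46.4 CPM. Its rise on differentiation was a log2 change of 0.97 ± 0.267 (SE; adjusted p = 0.009), and its excess after withdrawal (0.66, adjusted p = 0.0905) passed without undifferentiated replicate 3 (0.97, adjusted p = 0.0265).

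**Figure D3:**
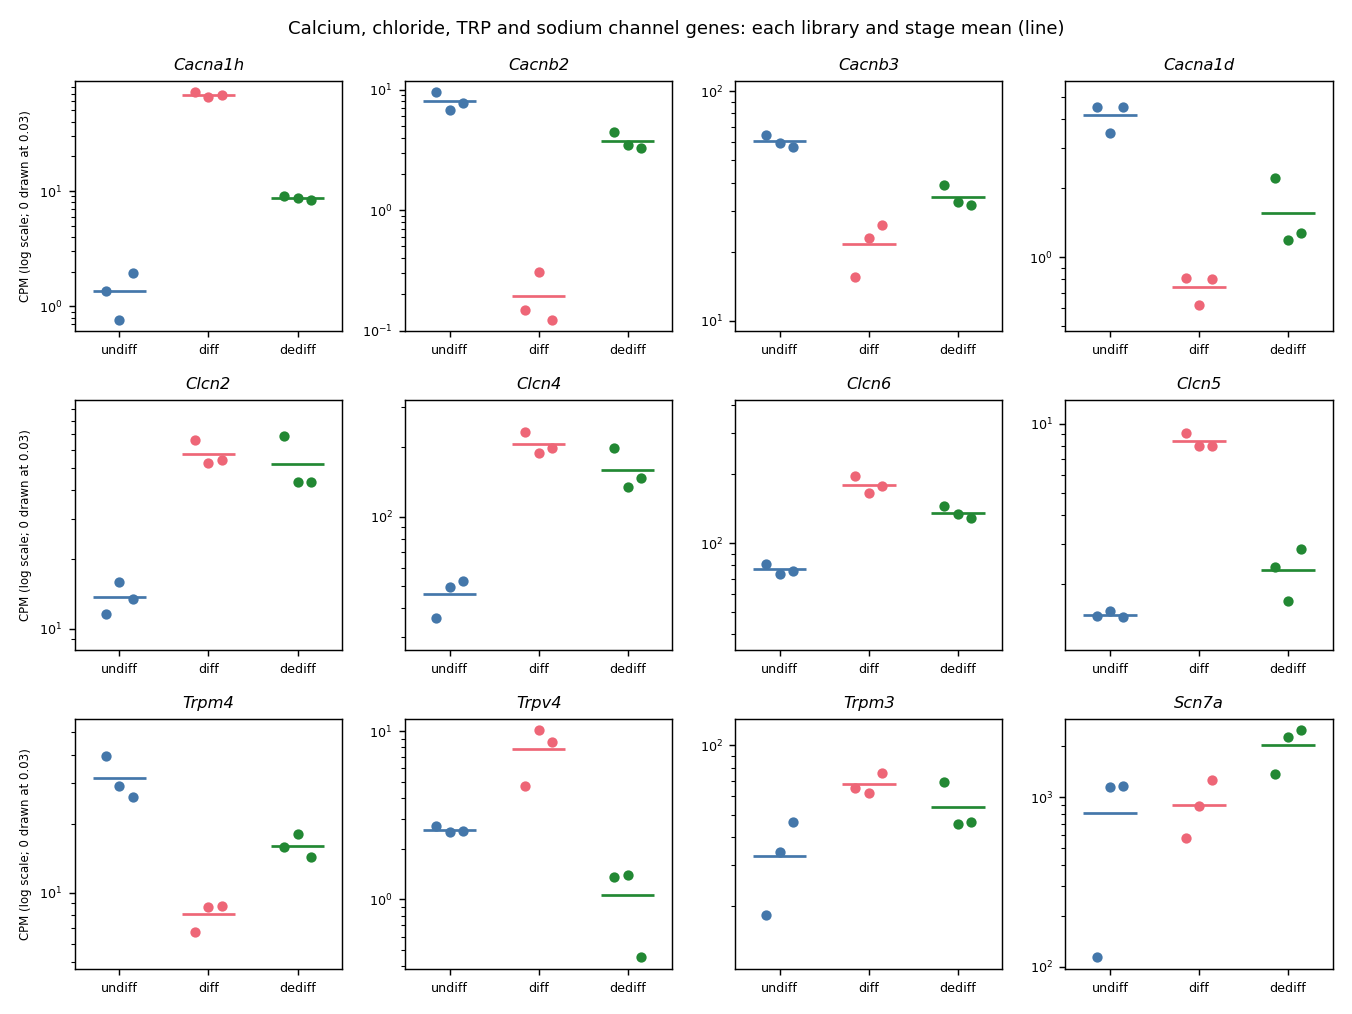
CPM of 12 calcium, chloride, TRP and sodium channel genes on log axes in each cell mRNA library, with points for replicates 1 to 3 from left to right and a line at the stage mean. Cacna1h, Clcn2, Clcn4, Clcn5 and Clcn6 are lowest in the undifferentiated stage, Cacnb2, Cacnb3, Cacna1d and Trpm4 are lowest in the differentiated stage, and Scn7a has 1 low undifferentiated library.

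**Figure D4:**
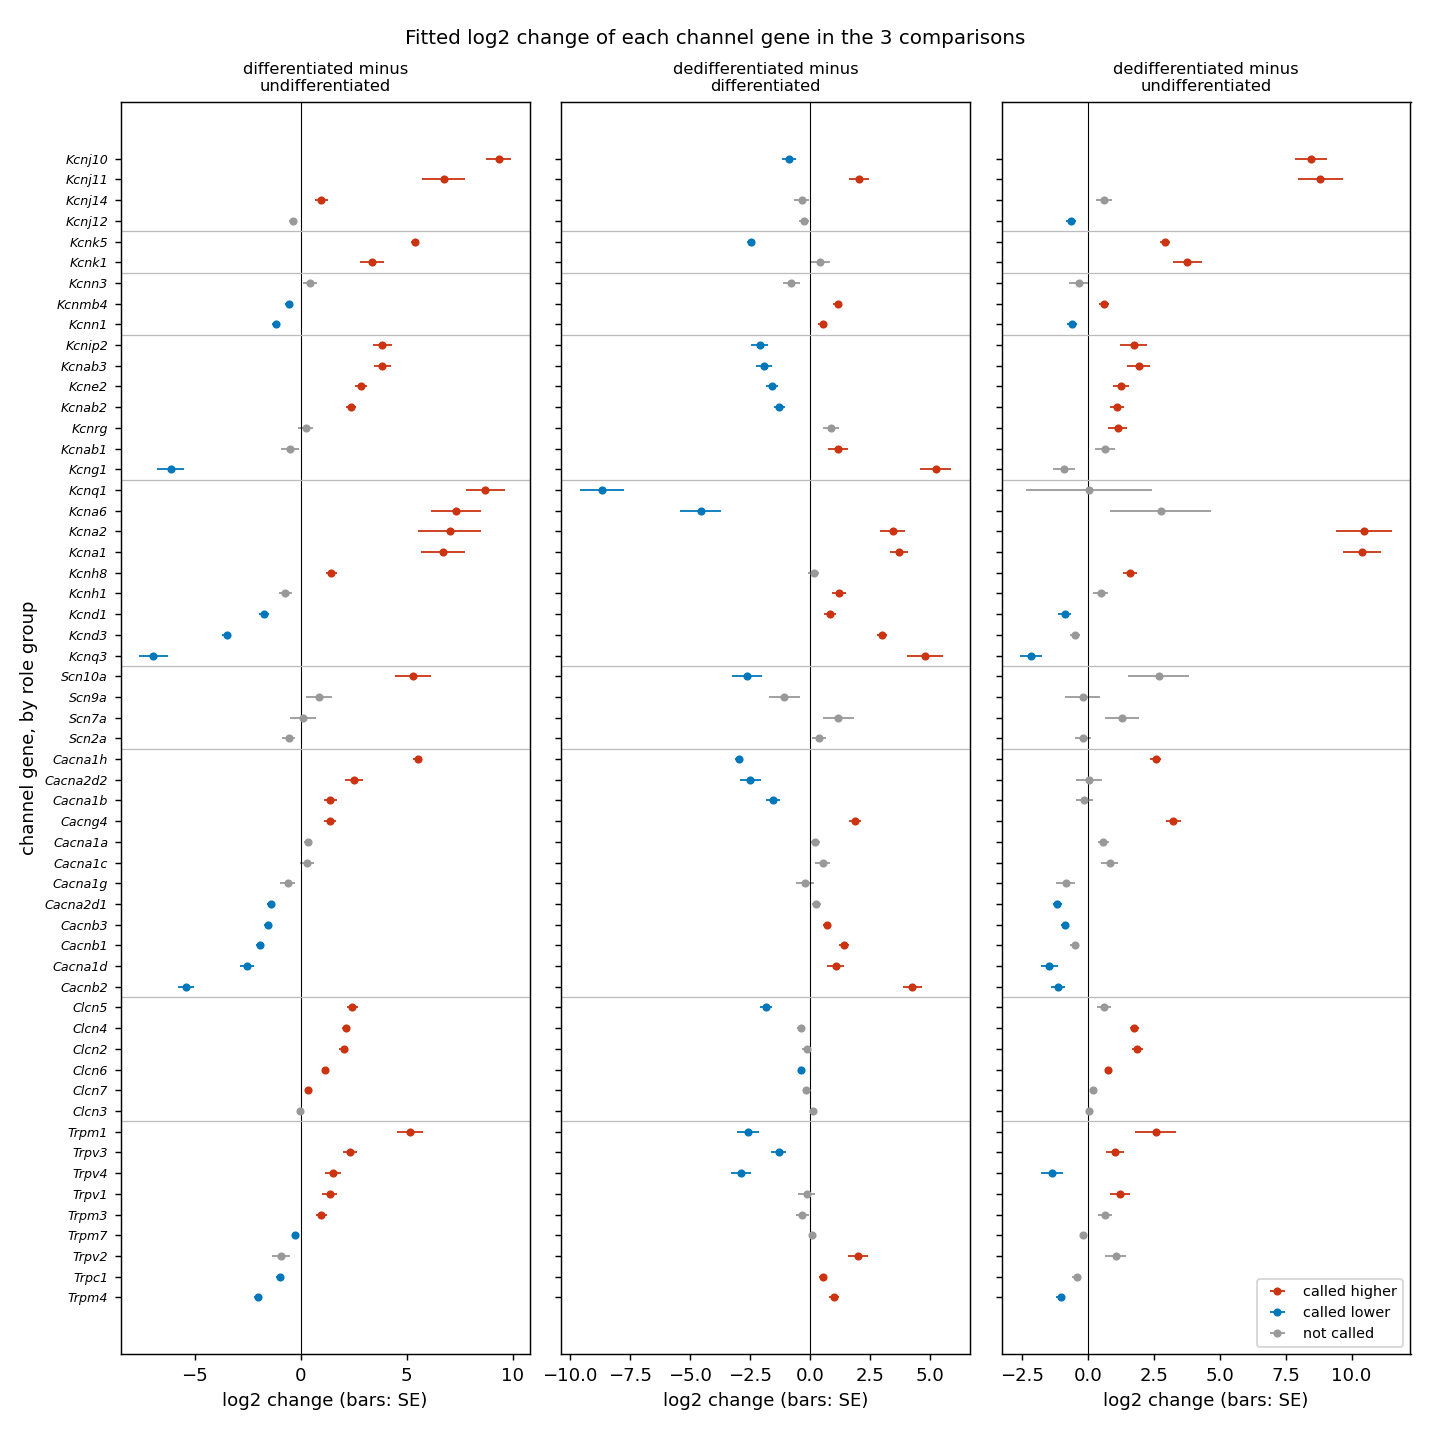
Fitted log2 change of 56 of the 59 channel genes in the 3 comparisons, with bars of 1 SE, in the row order of the role groups; red points passed the test as higher, blue points as lower and grey points did not pass. The first panel has 29 red and 14 blue points, the second 19 and 17, and the third 21 and 10; changes of genes at 0 counts in one stage depend on the small count that the fit adds and are lower bounds only as given in the text.

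Some channel genes carry miRNAs in their introns, and these were read in the EVs, an assay that the choice of members did not use. In the RefSeq annotation (GRCr8) miR-204 lies within Trpm3 (chromosome 1, 229099741 to 229984172), miR-211 within Trpm1 (chromosome 1, 127130686 to 127247219), and miR-188, miR-362, miR-500, miR-501 and miR-532 within Clcn5 (chromosome X, 17857260 to 18011844). The mature forms that these results turn on are given from RefSeq, with the seed (bases 2 to 8, which pair with targets) in capitals.
miR-204-5p: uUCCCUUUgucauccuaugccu
miR-211-5p: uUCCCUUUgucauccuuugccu
miR-204-3p: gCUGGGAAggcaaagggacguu
miR-532-5p: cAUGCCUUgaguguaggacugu
miR-501-3p: aAUGCACCcgggcaaggauuugg
miR-204-5p and miR-211-5p, each 22 bases long, share their seed and differ by the single substitution A17U, counted from the 5′ end of miR-204-5p. Reads of one could therefore be assigned to the other.

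No entry of the host-gene miRNAs passed edgeR's test in EVs, whose libraries held 81807 to 474965 counts. Of 18 tests (6 entries in 3 comparisons), 4 had an unadjusted p under 0.05 and 1, after withdrawal, passed under DESeq2. Over all 361 entries tested, 0% (0 entries) passed between differentiated and undifferentiated EVs, 3.05% (11) between dedifferentiated and differentiated EVs and 7.48% (27) between dedifferentiated and undifferentiated EVs. In the same order 29, 70 and 85 of the 361 had an unadjusted p under 0.05, and 2, 26 and 53 passed under DESeq2. miR-204-5p had 1711, 845 and 1019.8 CPM in undifferentiated, 1546, 1421 and 1745 CPM in differentiated and 2363, 1670.1 and 1562 CPM in dedifferentiated EV libraries. Its log2 changes were 0.56 on differentiation (adjusted p = 0.565) and 0.71 between dedifferentiated and undifferentiated EVs (adjusted p = 0.137), with the libraries overlapping in both. Its host Trpm3 had risen by 0.97 on the log2 scale in the cells. miR-204-3p, the other arm, had log2 changes of 0.64 (adjusted p = 0.629) and 0.71 (adjusted p = 0.244). miR-532-5p had 501, 394 and 468 CPM, 416, 392 and 296 CPM and 1137, 749.6 and 666 CPM, so it was highest in dedifferentiated EVs without overlap. Its change after withdrawal, 1.12 ± 0.308 (SE), had an adjusted p of 0.0931, and it passed with the replicate block (0.0451) and under DESeq2's Wald test (0.0249). The host Clcn5 had fallen by 1.83 over the same step. miR-501-3p had 281, 219.7 and 196 CPM, 99.3, 162 and 209 CPM and 309, 167 and 177 CPM, and its changes ranged from -0.40 to 0.29. Mature miR-211-5p had 0 to 6 counts per library and was not tested, although the hairpin entry of mir-211 held 17 to 200 counts per library, 5.94% to 12.4% of those of the mir-204 hairpin. Its host Trpm1 had 3 counts in undifferentiated and 139 counts in differentiated cells, a 41.3-fold difference (95% counting interval 13.8 to 203, adjusted p = 3.56e-05), and without undifferentiated replicate 2 the fitted change of 5.15 became 6.10. Trpm1 fell by 2.59 on the log2 scale after withdrawal (adjusted p = 0.00103).

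**Figure D5:**
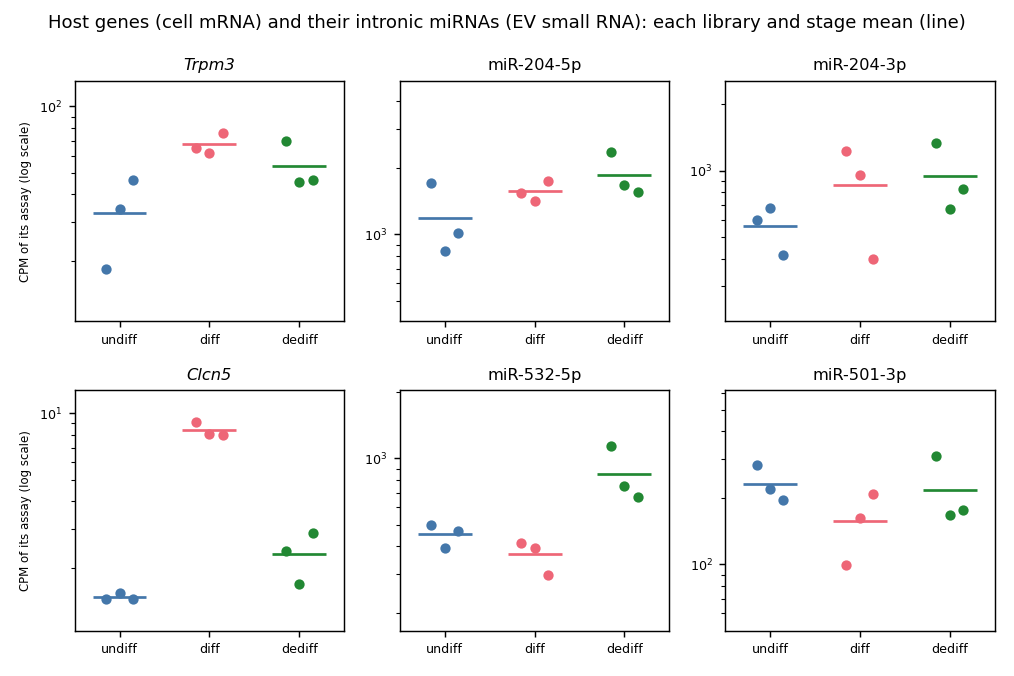
CPM on log axes of the host genes Trpm3 and Clcn5 in cell mRNA libraries (left column) and of their intronic miRNAs in EV small RNA libraries (the other columns), with points for replicates 1 to 3 and a line at the stage mean. Clcn5 is highest in differentiated cells while miR-532-5p is highest in dedifferentiated EVs, and the miR-204-5p libraries overlap between stages; each assay has its own CPM scale.

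Of the 158 genes, 99 stayed under 1 CPM at every stage and 35 of these had no count at all. The best-filled below the threshold were Kcnk6 (0.976 CPM at its highest stage), Clcn1 (0.951), Trpm8 (0.933) and Kcnf1 (0.931), and the lowest above it were Scn10a (1.46), Kcna6 (1.55) and Kcnab1 (1.60). Kcnk6 and Kcnh4 were the 2 that still had enough counts to be tested. Kcnk6 fell on differentiation and rose after withdrawal, as given above. Kcnh4 fell after withdrawal (log2 change -1.40, adjusted p = 0.0345). Among channels often named in nerve, the pores Scn8a, Kcnq5, Kcnc1, Kcnk2 and Kcnma1, the sodium channel subunits Scn2b, Scn3b and Scn4b, and the cation channel Trpc6 had stage means of at most 0.302 CPM, and Trpa1 and Trpm2 had no count. Kcnn4, the intermediate-conductance channel, reached 0.462 CPM. In the RefSeq order of protein-coding genes 23 pairs of members are neighbours, and in 3 pairs both genes reached 1 CPM: Trpv1 with Trpv3, Scn9a with Scn7a, and Kcna1 with Kcna6. Kcnj10, Kcnk5 and Kcnq1, which changed strongly, each lie beside a member (Kcnj9, Kcnk16 and Trpm5) whose stage means were at most 0.183 CPM.

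Other channel genes outside the name rule were listed as well (chloride, volume-regulated, mechanical, purinergic and cyclic nucleotide-gated). Of 60 listed 31 were tested. On differentiation 15 were higher and 9 lower (48.4% and 29%, against 31.7% and 27.9% of all genes tested). After withdrawal 6 rose and 16 fell (19.4% and 51.6%, against 23.2% and 23.2%). P2rx7, the ATP-gated cation channel, had 30.1, 62.7 and 60.3 CPM, 413, 534 and 496 CPM and 195, 135 and 123 CPM, rising with a log2 change of 3.18 ± 0.263 (SE; adjusted p = 2.3e-06) and keeping 1.53 ± 0.251 (SE; adjusted p = 0.00113) after withdrawal. Lrrc8b and Lrrc8d, subunits of the volume-regulated anion channel, both rose on differentiation and fell after withdrawal: Lrrc8b had 116, 98.1 and 102 CPM, 277, 259.5 and 268 CPM and 111, 97.1 and 105 CPM, with a log2 change of 1.28 ± 0.0946 (SE; adjusted p = 9.85e-07) and then -1.35 ± 0.0948 (SE; adjusted p = 1.95e-06), and Lrrc8d changed by 0.80 and then by -0.81. Ano4, of the anoctamin family, ran the other way, from 30.3, 31.0 and 36.8 CPM to 9.80, 13.7 and 13.3 CPM and back to 22.9, 31.1 and 35.2 CPM. Ttyh3 and the mechanically gated Piezo1 were lower in dedifferentiated than in undifferentiated cells, with log2 changes of -0.54 (adjusted p = 0.00166) and -0.47 (adjusted p = 0.00496).

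Genes that gather or anchor channels at nodes and paranodes (19 tested of 33 listed) were higher for 8 and lower for 8 on differentiation. These shares were 42.1% and 42.1%, against 31.7% and 27.9% of all genes tested. After withdrawal 9 rose and 4 fell (47.4% and 21.1%, against 23.2% and 23.2%). Nfasc, whose glial form neurofascin-155 holds the paranode and whose neuronal form gathers sodium channels, had 0.242, 0.192 and 0 CPM, 3.39, 2.16 and 1.79 CPM and 111, 45.8 and 40.9 CPM, with the largest of the dedifferentiated values in replicate 1. Its log2 change was 4.78 ± 0.451 (SE; adjusted p = 1.47e-05) after withdrawal, or 4.17 without dedifferentiated replicate 1, and 8.83 between both ends, or 9.53, 8.11 and 8.19 without undifferentiated replicate 1 or 3 or dedifferentiated replicate 1. Its counts include fractional reads. Nedd4l, the ubiquitin ligase that removes several channels from the membrane, had 123, 150.4 and 158 CPM, 25.3, 25.5 and 26.3 CPM and 83.5, 109.6 and 107 CPM. It fell with a log2 change of -2.54 ± 0.119 (SE; adjusted p = 3.92e-08), rose with 1.97 ± 0.117 (SE; adjusted p = 5.96e-07) and stayed under its start with -0.57 ± 0.11 (SE; adjusted p = 0.00299). The scaffold gene Dlg4, which encodes PSD-95, fell by 1.27 and rose by 0.86. Adam23, Cntnap1 and Dpp6 rose on differentiation and fell after withdrawal, as in Adam23 with 20.2, 20.3 and 24.1 CPM, 66.2, 71.6 and 66.7 CPM and 36.0, 24.9 and 31.9 CPM.

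Store-operated and endoplasmic reticulum calcium genes (20 tested of 25 listed) were higher for 8 and lower for 4 on differentiation. These shares were 40% and 20%, against 31.7% and 27.9% of all genes tested. After withdrawal 6 rose and 5 fell (30% and 25%, against 23.2% and 23.2%). Itpr1 and Itpr3 encode calcium release channels opened by inositol trisphosphate. Itpr1 had 5.40, 5.38 and 5.10 CPM, 27.4, 21.9 and 23.1 CPM and 10.4, 11.1 and 11.1 CPM, with a log2 change of 2.13 ± 0.143 (SE; adjusted p = 4.98e-07), and Itpr3 stayed raised after withdrawal, at 1.25 against undifferentiated cells (adjusted p = 0.000111), while Itpr2 was lower there, at -0.76 (adjusted p = 0.00164). Atp2b4, a calcium pump of the plasma membrane, had 21.3, 38.3 and 40.2 CPM, 1.25, 1.77 and 1.91 CPM and 5.17, 6.36 and 8.95 CPM. The pump gene fell with a log2 change of -4.38 ± 0.301 (SE; adjusted p = 5.93e-07) and recovered in part with 2.06 ± 0.315 (SE; adjusted p = 0.000406). Atp2a2, the pump that refills the reticulum, fell by 0.92 on the log2 scale after withdrawal (adjusted p = 4.43e-05), and the sodium-calcium exchanger gene Slc8a1 rose by 1.92 (adjusted p = 0.00036). Orai2, a pore of store-operated entry, was higher in dedifferentiated than in undifferentiated cells with 1.56 (adjusted p = 0.000132).

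Ion pumps and cation-chloride cotransporters (23 tested of 29 listed) were higher for 10 and lower for 9 on differentiation. These shares were 43.5% and 39.1%, against 31.7% and 27.9% of all genes tested. After withdrawal 10 rose and 6 fell (43.5% and 26.1%, against 23.2% and 23.2%). Atp1b2, a beta subunit of the sodium pump, had 6.45, 7.11 and 6.87 CPM, 65.2, 55.5 and 64.8 CPM and 59.3, 31.2 and 33.1 CPM and stayed raised, with a log2 change of 2.55 ± 0.24 (SE; adjusted p = 2.65e-05) between both ends. Slc12a2, the cotransporter NKCC1 that loads cells with chloride, climbed from 68.3, 57.4 and 56.1 CPM to 361, 255 and 259 CPM and to 684, 414 and 446 CPM, with a log2 change of 2.20 ± 0.216 (SE; adjusted p = 8.58e-06) and then 0.83 ± 0.205 (SE; adjusted p = 0.00728). The potassium-chloride cotransporters Slc12a4 and Slc12a7, which carry chloride out, fell on differentiation (-0.92 and -1.30) and rose after withdrawal (0.80 and 0.76). Stk39, a kinase that activates NKCC1, rose by 1.96 on differentiation. Fxyd5, a pump regulator, had 50.1, 40.2 and 40.9 CPM, 3.68, 5.40 and 5.24 CPM and 13.6, 14.1 and 14.0 CPM and fell with a log2 change of -3.26 ± 0.164 (SE; adjusted p = 6.56e-08). The bicarbonate cotransporter gene Slc4a7 rose by 1.67 and then fell by 2.45. For these 4 lists the dedifferentiated against undifferentiated counts were 6 higher and 4 lower, 6 and 5, 7 and 5, and 8 and 4 in the order given. As shares these were 19.4% and 12.9%, 31.6% and 26.3%, 35% and 25%, and 34.8% and 17.4%. Over all genes tested the shares were 16.1% and 13.3%, so those of the first list were close to them.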

How the data were processed

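Cell mRNA was sequenced in 9 libraries (3 stages of 3) and EV small RNA in 9 others. Per the labels' protocols, 10 ng of total RNA entered a directional kit for mRNA and 5 ng a small RNA kit. For cell mRNA the authors deposited Salmon's estimated counts, merged over libraries into one row per gene, per the submitters' processing notes and the table's own form; 1.15% of values were not whole. The deposited EV miRNA values are raw counts per miRNA entry, of which 481 of 965 are mature forms. The build, annotation and strand setting of the authors' counting are not given in the sources used here. The EV lncRNA table was not used here.

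Columns were matched to samples by library codes in the descriptions. Estimated counts were rounded and tested with edgeR 4.0.16 (R 4.3.3): quasi-likelihood fit over all 9 libraries with stage as the term, TMM scaling, and a filter requiring about 10 counts in a stage (filterByExpr). P-values were adjusted by Benjamini-Hochberg over all 10372 genes, or 361 EV entries, and called at 0.05. Standard errors came from the log2 change and the F statistic. The procedure was run on simulated counts, which did not model genes absent at a stage or single outlying libraries. CPM uses column totals. Same-numbered undifferentiated and differentiated libraries deviated together (correlations of deviations 0.23 to 0.3). The labels do not state a pairing, and what these libraries shared was not tested. The main fit leaves the replicate number out. Alternatives were the replicate block, other scalings, DESeq2 1.42.0, other filters, a term setting replicate 3 apart from the others, and leaving out each library. The authors' processing notes list DESeq2 1.26.0.

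Genes named were, per comparison, up to 8 rising and 8 falling members with the smallest p among calls without overlap, the member with the highest mean CPM of each role group, and a fixed list of channels known in nerve, with up to 2 rising and 2 falling genes per comparison of each further list. Some genes that this rule names are not reported here and not drawn; they stay in the fits and counts. The members and lists were chosen with earlier results of these data known. Sequences and gene positions are from RefSeq (GRCr8), where all 158 members matched by symbol.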

Additional observations from a re-analysis of the deposited data

How the results depend on the processing

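The counts of channel genes called stayed within 1.5 times of the values given, except under a stricter filter and without one library. The stricter filter kept genes with 10 or more counts in every library, which removes genes absent or scarce at one stage. With it 24 were called between differentiated and undifferentiated cells (13 higher), where the main fit had 31 higher and 14 lower. The excess of rises over falls was thus smaller among the genes kept. Between dedifferentiated and differentiated cells 17 were called (11 higher, 6 lower), and 17 between dedifferentiated and undifferentiated cells (11 higher, 6 lower). The share over all genes under this filter is not given here. With single libraries left out the called numbers ran from 43 to 47 (29 to 32 higher, 13 to 15 lower), from 32 to 41 (15 to 21 higher, 16 to 21 lower) and from 23 to 33 (17 to 22 higher, 6 to 11 lower, the 6 without dedifferentiated replicate 3). With the replicate number as a block they were 45, 39 and 38; correlations of same-numbered libraries were 0.08 to 0.21 for differentiated with dedifferentiated and 0.03 to 0.15 for undifferentiated with dedifferentiated cells. The calls of single genes that the block changed are given beside those genes, except Trpv3 between dedifferentiated and undifferentiated cells (1.00, adjusted p = 0.0522); the block changed no other call of the genes and miRNAs reported. Changes that turned sign were of genes or miRNAs without a call. With library size alone, Clcn3 stood at 0.00 on differentiation. After withdrawal miR-204-5p stood at -0.12 among mature entries alone, and miR-204-3p at -0.01 with DESeq2 size factors, -0.01 under DESeq2's Wald test and -0.20 among mature entries alone. The cause was not tested.
With single libraries left out, the log2 changes that turned sign ran as follows. On differentiation they were Clcn3 from -0.13 to 0.03 and Scn7a from -0.41 to 0.45. After withdrawal they were Cacna1a from -0.09 to 0.37, Kcnh8 from -0.06 to 0.46, Kcnk1 from -0.06 to 0.82, Trpv1 from -0.45 to 0.21, miR-204-5p from -0.10 to 0.16, miR-204-3p from -0.39 to 0.11 and miR-501-3p from -0.13 to 0.48. Between dedifferentiated and undifferentiated cells they were Cacna1b from -0.37 to 0.11, Cacna2d2 from -0.28 to 0.44, Clcn3 from -0.09 to 0.10, Kcna6 from 0.00 to 3.37, Kcnq1 from -1.95 to 2.00 and Scn9a from -0.73 to 0.38.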
